A study of Mus musculus with 36 samples.

Results

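The 31 genes described here encode proteins of the synaptic vesicle, of the machinery that releases and retrieves it, and of the postsynaptic density. They were listed by symbol, with no measured value in the rule but with earlier results of these data known. They were matched to the Ensembl identifiers of a deposited table of 54532 genes. The 22 presynaptic members are Syn1, Syn2, Syp, Syt1, Sv2a, Sv2b, Rab3a, Slc17a6, Slc17a7, Snap25, Stx1a, Vamp2, Cplx1, Cplx2, Nsf, Napb, Bsn, Pclo, Rims1, Unc13a, Dnm1 and Synj1. The 9 postsynaptic members are Dlg4, Shank1, Shank2, Shank3, Homer1, Nlgn2, Camk2a, Camk2b and Nrgn. All 31 passed the low-count filter that left 18438 genes for testing. The lowest count of any member in any library was 1042, for Slc17a6.

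Libraries were made from whole brains of wild-type (WT) C57BL/6 mice at day 19, the peak of experimental autoimmune encephalomyelitis (EAE), a mouse model of multiple sclerosis. EAE was induced with the myelin peptide MOG35-55 in complete Freund's adjuvant together with pertussis toxin. Mice with EAE were left untreated (n = 9), given corn oil by daily gavage as vehicle (n = 9), or given trans,trans-farnesol at 100 mg per kg per day in corn oil by gavage (n = 10). Naive mice (n = 8) were not immunized. All 3 EAE groups had received adjuvant and toxin, and no group received these alone. The comparisons ask how synaptic transcripts differ between diseased and healthy brain, and whether farnesol or its vehicle changes them.

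At a chemical synapse, synaptic vesicles are filled with transmitter, tethered to the presynaptic active zone and fused with the plasma membrane by SNARE proteins when calcium binds synaptotagmin. The vesicle membrane is then retrieved by endocytosis. On the other side of the cleft, scaffold proteins of the PSD-95, Shank and Homer families hold glutamate receptors, adhesion molecules and the calcium/calmodulin-dependent kinase CaMKII in place. These transcripts come almost wholly from neurons, and in whole-brain RNA fewer neurons and less RNA per neuron cannot be told apart.

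The shallowest library held 14.71 M counts and the deepest 24.21 M. The members took 2.28% of counts in the median naive library, 2.17% in untreated EAE, 2.08% in vehicle EAE and 2.09% in farnesol EAE. The libraries fell into 2 sets that no label names, by their level of the ribosomal RNA gene CT010467.1 in CPM (counts scaled to a common library size). All untreated and vehicle libraries and farnesol replicates 1 to 3 held 1284 to 2784 CPM, whereas all naive libraries and farnesol replicates 4 to 10 held 5091 to 17689 CPM. The naive libraries share the high set only with the 7 farnesol libraries, so group and library set cannot be told apart in the comparisons of untreated or vehicle EAE with naive brain. Cerebellar markers were low in 1 naive, 1 untreated and 1 farnesol library, and the gene Sbp exceeded 1 CPM in untreated replicates 1 to 5 and vehicle replicates 3 to 5. Leukocyte markers rose in 15 of 17 tested genes in untreated EAE, 15 in vehicle EAE and 14 in farnesol EAE. Their summed level was 22.0 to 29.8 CPM in naive, 88.1 to 515 CPM in untreated, 74.0 to 1110 CPM in vehicle and 86.4 to 691 CPM in farnesol libraries. None of the 18 listed leukocyte genes was at 0 in every library of a group. General neuronal markers fell in 5, 10 and 13 of 18 genes in untreated, vehicle and farnesol EAE. Olfactory bulb markers fell in 6, 5 and 9 of 12 genes, and their summed level was 336 to 492 CPM in naive, 242 to 401 CPM in untreated, 299 to 408 CPM in vehicle and 258 to 352 CPM in farnesol libraries. Astrocyte markers fell in 5, 3 and 6 of 12 genes and oligodendrocyte markers in 2, 2 and 3 of 12. Beside these counts, 11.3%, 15.2% and 16.3% of all genes tested fell in untreated, vehicle and farnesol EAE against naive brain. The shares that rose were 13.6%, 16.3% and 17.9%. The part of these marker differences in the results for the members was not tested.

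Most genes of the vesicle membrane and of its fusion machinery were lower in EAE brain than in naive brain: of these 14 genes 10 fell in untreated, 13 in vehicle and 13 in farnesol EAE, with log2 changes between -0.12 and -0.40. The test was edgeR's quasi-likelihood test over all 36 libraries, and a gene is said to have fallen or risen where its Benjamini-Hochberg adjusted p over 18438 genes was below 0.05. In untreated EAE 16 members fell and 1 rose, where 11.3% of all genes fell and 13.6% rose. In vehicle EAE 23 members fell and none rose, beside 15.2% of all genes that fell and 16.3% that rose. In farnesol EAE 22 members fell and none rose, beside 16.3% and 17.9%. No member had an unadjusted edgeR p below 0.05 with a higher level in vehicle or farnesol EAE, and DESeq2 called none higher there. The 3 comparisons share the naive libraries. The members are abundant transcripts, and abundant transcripts in general were often lower in EAE. Of the 2422 genes with a mean of at least 97.5 CPM, the level of the least abundant member, 31.3%, 47.3% and 49.7% fell in untreated, vehicle and farnesol EAE, with median log2 changes of -0.08, -0.12 and -0.12. The members' median log2 changes were -0.14, -0.22 and -0.19.

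**Figure D1:**
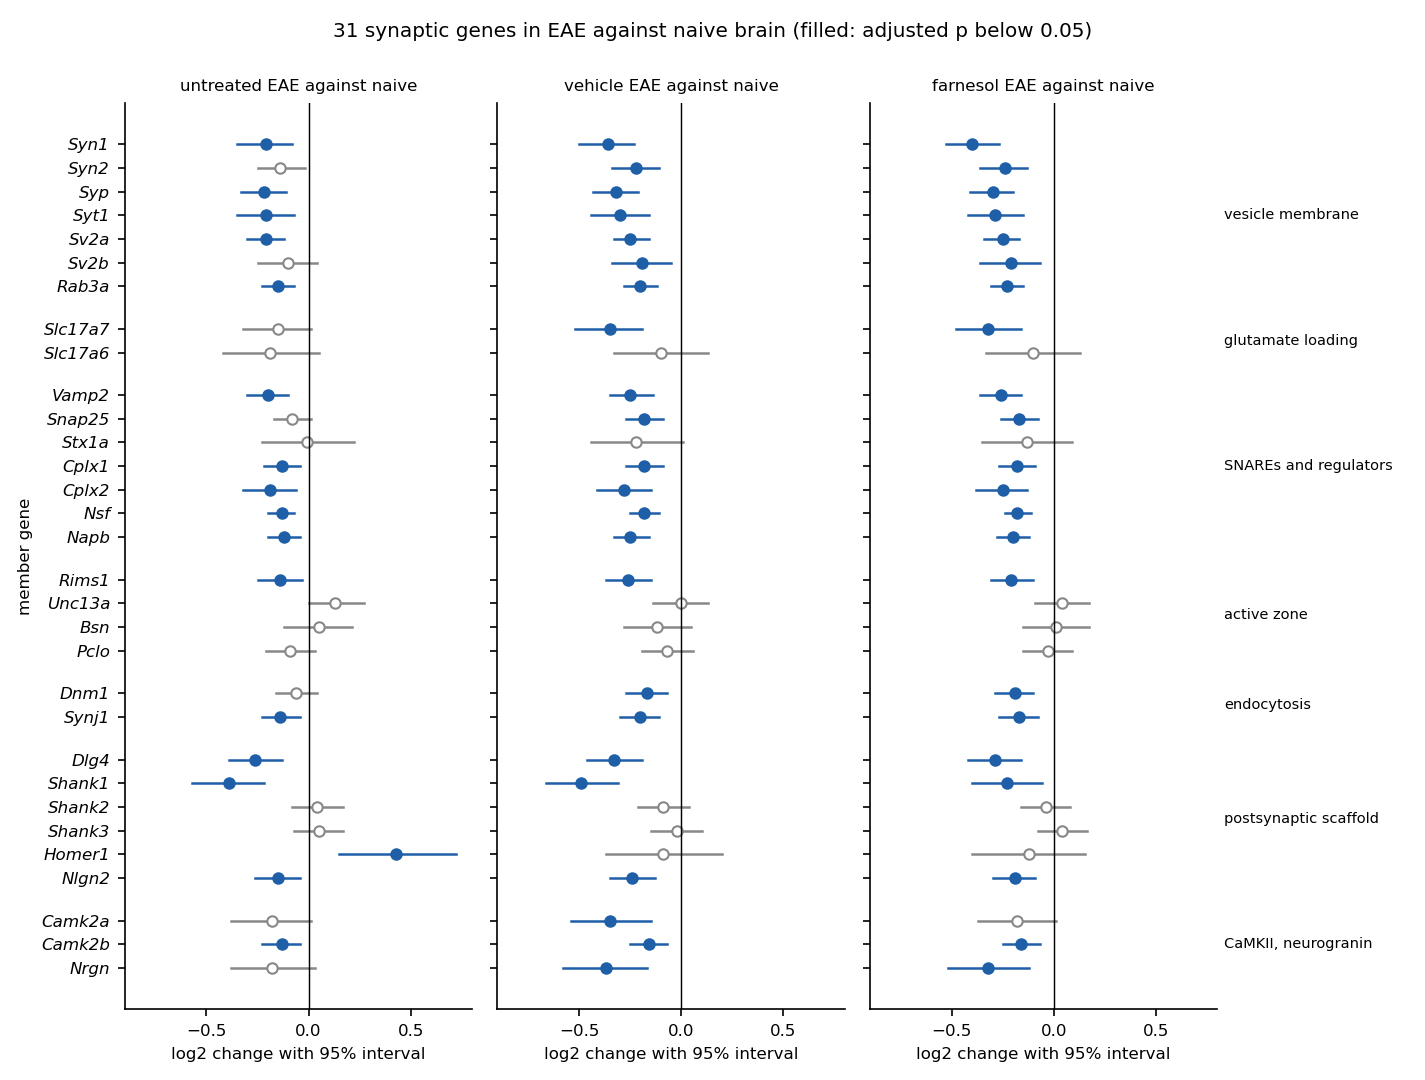
Log2 change of each of the 31 members (rows, grouped by role) in untreated, vehicle and farnesol EAE against naive brain, with lines for the 95% interval and filled points for edgeR adjusted p below 0.05. Vesicle membrane genes lie to the left of 0 in all 3 panels, the active zone genes Unc13a, Bsn and Pclo have no filled point, and Homer1 is to the right of 0 in untreated EAE.

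All libraries of a group lay below all naive libraries for 0 members in untreated EAE, 17 in vehicle EAE and 4 in farnesol EAE. The same separation was seen in 1.00%, 3.45% and 1.58% of all genes tested. Within the high library set, where 7 farnesol and 8 naive libraries can be compared, 23 members fell and none rose, beside 13.3% of 17283 genes that fell and 14.9% that rose. In that set 41.0% of the abundant genes fell. When the model of all 36 libraries also held a term for library set, which only the farnesol group informs, 21 members fell in farnesol EAE and 4 in vehicle EAE (Napb, Syn1, Syt1 and Vamp2). No member was called by edgeR in untreated EAE in that fit. At an unadjusted p below 0.05, 8 members were lower in untreated and 17 in vehicle EAE. The 16 members that fell in untreated EAE all kept a log2 change below 0 with the term, with a median of -0.13 against -0.17 without it, and 6 of them were as low or lower. The 23 that fell in vehicle EAE also stayed below 0, with a median of -0.21 against -0.25, and 10 were as low or lower. The standard errors of these members grew by a median of 1.74 times in untreated and 1.73 times in vehicle EAE. These members were picked by their fall in the same libraries, so their values with the term are a description and not a test. Syn1, for example, was -0.27 ± 0.11 in untreated and -0.42 ± 0.11 in vehicle EAE with the term, and Dlg4 was -0.26 ± 0.11 and -0.32 ± 0.11. Other members shrank. Shank1 was -0.05 ± 0.14 and -0.14 ± 0.14 with the term, after falls of 0.39 and 0.49 without it. Cplx1 was -0.02 ± 0.07 and -0.07 ± 0.07, after falls of 0.13 and 0.18. The backgrounds in that fit were 12.7%, 1.75% and 0.407% of all genes in farnesol, vehicle and untreated EAE. Of the abundant genes 41.8%, 5.12% and 0.661% fell there. With total counts as the library size, without a scaling factor, 5 members still fell in untreated EAE (Dlg4, Shank1, Sv2a, Syp and Vamp2) and 2 rose (Homer1 and Unc13a), beside 4.38% and 19.5% of all genes. In vehicle EAE Camk2b, Cplx1, Dnm1, Snap25, Sv2b and Syn2 then lost their call, beside 5.17% of all genes that fell. In farnesol EAE Camk2b, Cplx1, Nlgn2, Shank1, Snap25, Sv2b and Synj1 lost it, beside 6.25%. Of the abundant genes 11.7%, 17.9% and 21.8% fell in untreated, vehicle and farnesol EAE with total counts.

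Of the vesicle membrane proteins, all 7 fell in vehicle EAE and in farnesol EAE, and 5 of 7 fell in untreated EAE. Syn1 encodes synapsin I, which tethers vesicles to one another and to actin. Its level was 621 to 784 CPM in naive libraries (median 705), 534 to 741 CPM in untreated EAE (median 571), 474 to 599 CPM in vehicle EAE (median 556) and 452 to 644 CPM in farnesol EAE (median 532). All 9 vehicle libraries and 9 of 10 farnesol libraries were below the lowest naive library, against 6 of 9 untreated libraries. The log2 change of Syn1 was -0.21 ± 0.07 (SE) in untreated EAE (edgeR adjusted p = 0.0148), -0.36 ± 0.07 in vehicle EAE (edgeR adjusted p = 6.74e-05) and -0.40 ± 0.06 in farnesol EAE (edgeR adjusted p = 1.38e-05). Within the high library set the change in farnesol EAE was -0.41 ± 0.05 (edgeR adjusted p = 1.28e-05), as large as over all libraries.

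**Figure D2:**
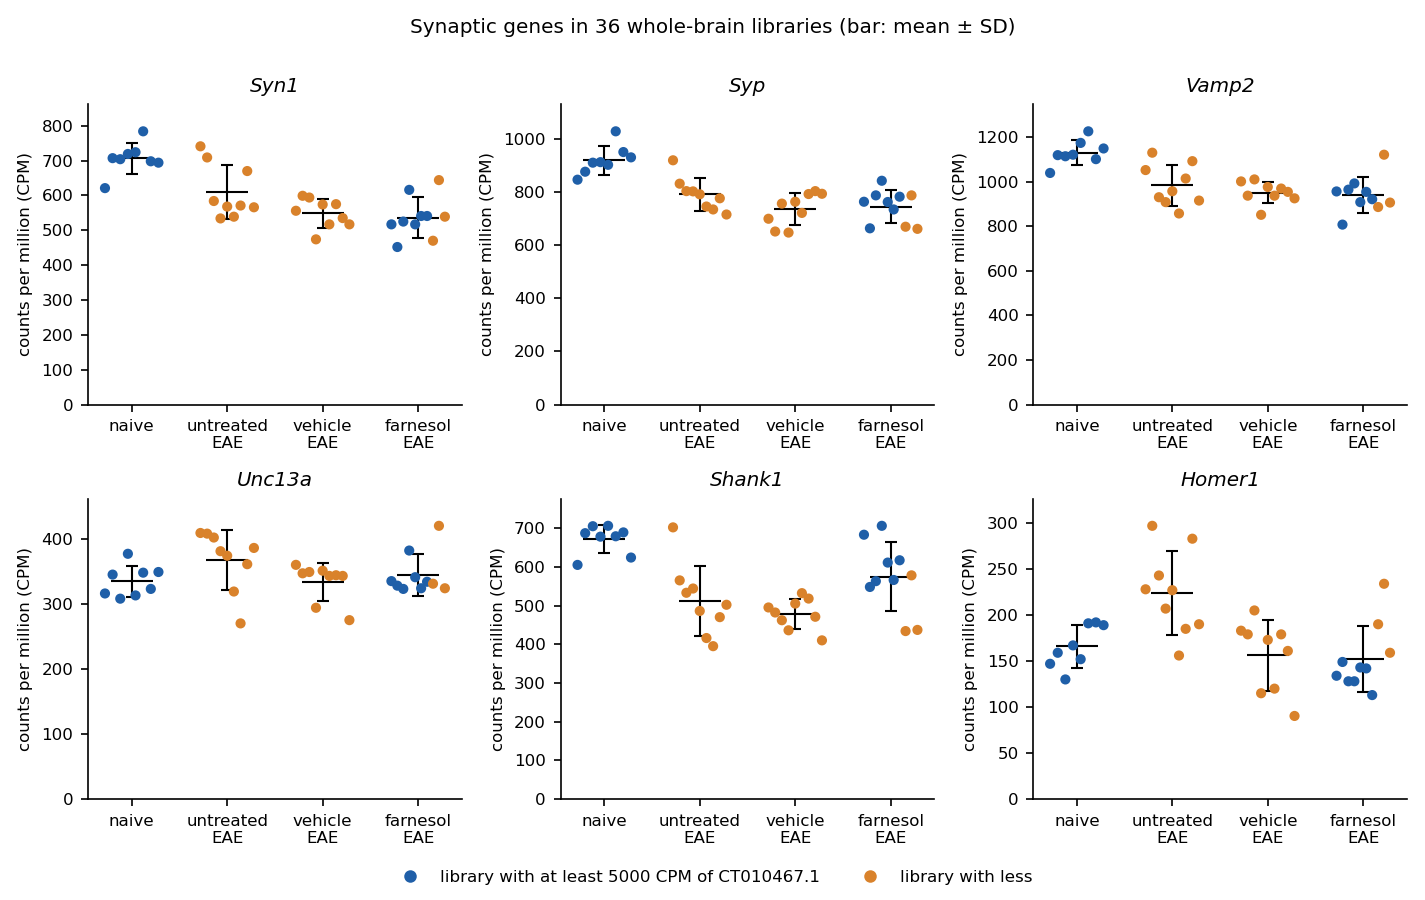
Level of 6 members (Syn1, Syp, Vamp2, Unc13a, Shank1 and Homer1) in CPM on linear axes from 0, with 1 point per library, bars for mean ± SD of each group, and colour for the library set by the CT010467.1 level. Syn1, Syp and Vamp2 are lower in the EAE groups than in naive brain, Unc13a overlaps in every group, and Shank1 and Homer1 differ between the library sets within the farnesol group.

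Syp encodes synaptophysin, the abundant membrane protein used to mark vesicles. Its level was 846 to 1028 CPM in naive libraries (median 911), 715 to 919 CPM in untreated EAE (median 791), 647 to 803 CPM in vehicle EAE (median 756) and 661 to 842 CPM in farnesol EAE (median 762). Every vehicle and farnesol library was below the lowest naive library, as were 8 of 9 untreated libraries. Its log2 change was -0.22 ± 0.05, -0.32 ± 0.05 and -0.30 ± 0.05 in untreated, vehicle and farnesol EAE (edgeR adjusted p = 0.00248, 2.41e-05 and 3.25e-05). The same separation in vehicle and farnesol EAE was seen for Sv2a, the vesicle glycoprotein that binds the antiepileptic drug levetiracetam. Sv2a measured 624 ± 46.3 CPM in naive (SD, n = 8), 538 ± 39.5 in untreated (n = 9), 525 ± 18.7 in vehicle (n = 9) and 523 ± 26.7 CPM in farnesol libraries (n = 10). It fell by 13.7%, 15.7% and 16.1% in the 3 EAE groups.

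Syt1, the calcium sensor synaptotagmin 1, fell by 13.6% in untreated, 18.8% in vehicle and 18.0% in farnesol EAE. Rab3a, a small GTPase of the vesicle surface, was 601 to 683 CPM in naive libraries and fell by 9.92%, 13.1% and 14.7%. Sv2b, the paralogue of Sv2a, was -0.10 ± 0.07 in untreated EAE (edgeR adjusted p = 0.322) and fell by 12.6% in vehicle and 13.8% in farnesol EAE.

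Syn2 encodes synapsin II, the close relative of synapsin I. It measured 487 to 555 CPM in naive (median 504), 427 to 568 CPM in untreated (median 450), 387 to 481 CPM in vehicle (median 445) and 368 to 509 CPM in farnesol libraries (median 434). Its log2 change was -0.14 ± 0.06 in untreated EAE (edgeR adjusted p = 0.0791), -0.22 ± 0.06 in vehicle EAE (edgeR adjusted p = 0.00298) and -0.24 ± 0.06 in farnesol EAE (edgeR adjusted p = 0.00105). These estimates are smaller than those of Syn1, and the ratio of the 2 genes within each library was tested directly. The log2 ratio of Syn2 to Syn1 was -0.57 to -0.35 in naive, -0.56 to -0.32 in untreated, -0.43 to -0.21 in vehicle and -0.37 to -0.25 in farnesol libraries. The mean ratio was 0.15 higher in farnesol EAE than in naive brain (-0.30 ± 0.04 against -0.45 ± 0.08, two-sided exact permutation p = 0.000114, adjusted p = 0.00343 over 30 tests). It was 0.14 higher in vehicle EAE than in naive brain (-0.31 ± 0.08, exact permutation p = 0.00296, adjusted p = 0.0248). Without the libraries with Sbp the vehicle difference was again 0.14, in 6 against 8 libraries, and did not pass (exact permutation adjusted p = 0.0799). The difference of 0.08 between untreated EAE and naive brain did not pass (exact permutation p = 0.0497, adjusted p = 0.213). Farnesol EAE exceeded untreated EAE by 0.08 (exact permutation p = 0.0033, adjusted p = 0.0248), but without the libraries with Sbp the difference was 0.06 with adjusted p = 0.206. Within the high library set the ratio was 0.17 higher in farnesol EAE than in naive brain (exact permutation adjusted p = 0.00932).

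**Figure D3:**
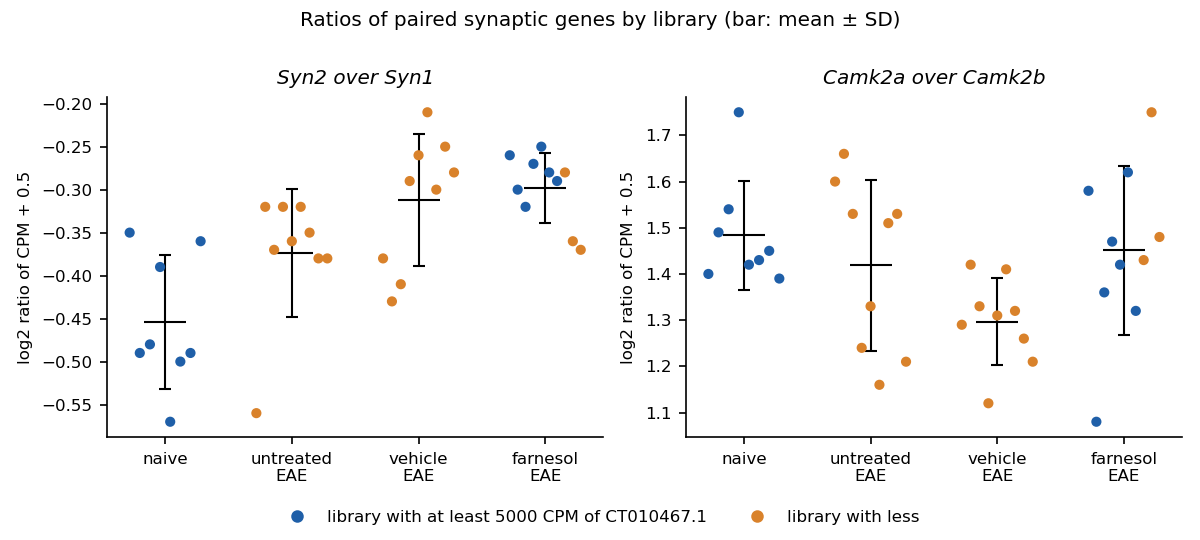
Log2 ratio of Syn2 to Syn1 (left) and of Camk2a to Camk2b (right) in each library, with bars for mean ± SD of each group and colour for the library set; the axes do not start at 0. Farnesol libraries lie between -0.37 and -0.25 for Syn2 over Syn1, above most naive libraries, and vehicle libraries are the lowest group for Camk2a over Camk2b.

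The sequences before the transcription starts of Syn1 and Syn2 are shown because the 2 relatives differed in the size of their change. They are from RefSeq's promoter table on GRCm38.p6, on the gene's strand, 5′ to 3′, and end where the GENCODE gene begins: Syn1 is chrX:20921005-20921168 on the minus strand and Syn2 is chr6:115134652-115134901 on the plus strand. Capitals mark matches to the motifs searched, which in Syn1 are an RE1 element (the site of the neuron-restrictive silencer REST) whose first base is 232 bases before the RefSeq start, and a cyclic AMP response element (CRE, TGACGTCA) 159 bases before it.
Syn1: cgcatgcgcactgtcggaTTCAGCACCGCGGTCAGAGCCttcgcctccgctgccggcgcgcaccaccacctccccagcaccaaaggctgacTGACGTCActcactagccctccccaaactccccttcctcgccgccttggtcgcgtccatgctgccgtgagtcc
Syn2: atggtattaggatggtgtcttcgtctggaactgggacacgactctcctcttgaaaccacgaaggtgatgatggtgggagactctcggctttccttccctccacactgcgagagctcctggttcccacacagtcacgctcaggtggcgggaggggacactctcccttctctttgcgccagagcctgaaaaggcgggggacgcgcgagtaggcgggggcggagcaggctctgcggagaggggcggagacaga
The Syn1 element matches 17 of the 19 fixed letters of the RE1 motif searched, and no other member window matched at least 15. Of all 32851 RefSeq promoter windows of 300 bases, 0.228% held such a match and 1.79% held the CRE letters. No match in the Syn2 window says only that these letters are not in it.

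The 2 vesicular glutamate transporters load glutamate into vesicles, Slc17a7 (VGLUT1) chiefly in cortex, hippocampus and cerebellar granule cells, and Slc17a6 (VGLUT2) chiefly in thalamus and brainstem. Slc17a7 was 1054 to 1420 CPM in naive (median 1138), 856 to 1318 CPM in untreated (median 988), 785 to 1010 CPM in vehicle (median 916) and 726 to 1185 CPM in farnesol libraries (median 922). All vehicle libraries were below all naive libraries, whereas the untreated and farnesol ranges overlapped the naive range. Slc17a7 was -0.15 ± 0.08 in untreated EAE (edgeR adjusted p = 0.167), -0.35 ± 0.08 in vehicle EAE (edgeR adjusted p = 0.000903) and -0.32 ± 0.08 in farnesol EAE (edgeR adjusted p = 0.00196). Slc17a6 did not pass in any of the 3 comparisons, with log2 changes of -0.19, -0.10 and -0.10 and a standard error of 0.11 in each. The Slc17a7 to Slc17a6 ratio was not shown to differ in any of the 6 comparisons (smallest exact permutation adjusted p = 0.179). The smallest p an exact test could give there was 1.08e-05 to 4.11e-05.

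Of the 7 genes of the SNARE complex and its regulators, 5 fell in untreated EAE, 6 in vehicle EAE and 6 in farnesol EAE. Vamp2 encodes synaptobrevin 2, the SNARE of the vesicle. It was 1040 to 1227 CPM in naive (median 1121), 858 to 1131 CPM in untreated (median 958), 852 to 1011 CPM in vehicle (median 955) and 808 to 1122 CPM in farnesol libraries (median 939). All vehicle libraries and 9 of 10 farnesol libraries were below the lowest naive library. Vamp2 fell by 12.9% in untreated, 15.8% in vehicle and 16.7% in farnesol EAE (edgeR adjusted p = 0.00396, 0.000352 and 0.000133).

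Snap25 and Stx1a encode the SNAREs of the target membrane. Snap25 was the most abundant presynaptic member in CPM, at 2241 ± 69.6 CPM in naive libraries. It was -0.08 ± 0.04 in untreated EAE (edgeR adjusted p = 0.22) and fell on the log2 scale in vehicle EAE (-0.18 ± 0.04, edgeR adjusted p = 0.00259) and in farnesol EAE (-0.17 ± 0.04, edgeR adjusted p = 0.00296). Stx1a, syntaxin 1A, did not pass in any comparison with naive brain, and its naive level of 160 ± 25.2 CPM varied more between libraries than that of any other presynaptic member (coefficient of variation 15.8%).

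The complexins clamp and trigger fusion. Cplx1 fell by 8.61%, 11.7% and 11.7%, and Cplx2 by 12.2%, 17.7% and 16.0% in untreated, vehicle and farnesol EAE. Nsf, the ATPase that takes SNARE complexes apart, and Napb, its neuronal adaptor beta-SNAP, had small but well-separated differences. Nsf was 898 to 976 CPM in naive libraries, and every vehicle library (742 to 864 CPM) and farnesol library (779 to 876 CPM) was below that range. Napb showed the same separation, at 502 to 574 CPM in naive, 406 to 470 CPM in vehicle and 426 to 500 CPM in farnesol libraries. The ratio of Cplx2 to Cplx1 and that of Sv2b to Sv2a passed in none of the 6 comparisons (smallest exact permutation adjusted p of 0.56 and 0.583).

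Of the 4 active zone genes, Rims1 alone was called against naive brain. It encodes a protein that links vesicles to calcium channels, and it fell by 9.29%, 16.5% and 13.3% in untreated, vehicle and farnesol EAE. Unc13a encodes Munc13-1, which primes vesicles for fusion. It was 308 to 377 CPM in naive (median 334), 270 to 409 CPM in untreated (median 381), 275 to 360 CPM in vehicle (median 344) and 323 to 420 CPM in farnesol libraries (median 333). The groups overlapped throughout, and 5 of 9 untreated libraries were above the highest naive library. Its log2 change was 0.13 in untreated EAE (95% interval 0.00 to 0.27, edgeR adjusted p = 0.139), 0.00 in vehicle EAE (-0.14 to 0.13) and 0.04 in farnesol EAE (-0.09 to 0.17). With total counts as the library size Unc13a rose in untreated EAE, by 0.20 ± 0.07 (edgeR adjusted p = 0.02). Bsn and Pclo encode bassoon and piccolo, the giant scaffolds of the active zone. Bsn changed by 0.05, -0.12 and 0.01 and Pclo by -0.09, -0.07 and -0.03 on the log2 scale, and none of these passed.

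Unc13a and Shank3 are shown as a presynaptic and a postsynaptic member not called against naive brain over all libraries with TMM scaling. Their windows both hold the 9-letter EGR site GCGTGGGCG (CGCCCACGC on the other strand) and the SP1 site GGGGCGGGG (CCCCGCCCC). Unc13a is chr8:71671758-71672007 on the minus strand and Shank3 is chr15:89499358-89499607 on the plus strand (GRCm38.p6, 5′ to 3′, capitals for the matches).
Unc13a: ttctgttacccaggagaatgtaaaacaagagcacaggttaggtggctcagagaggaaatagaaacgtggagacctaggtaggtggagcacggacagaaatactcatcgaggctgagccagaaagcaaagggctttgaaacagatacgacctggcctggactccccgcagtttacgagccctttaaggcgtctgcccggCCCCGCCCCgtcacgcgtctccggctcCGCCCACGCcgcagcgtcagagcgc
Shank3: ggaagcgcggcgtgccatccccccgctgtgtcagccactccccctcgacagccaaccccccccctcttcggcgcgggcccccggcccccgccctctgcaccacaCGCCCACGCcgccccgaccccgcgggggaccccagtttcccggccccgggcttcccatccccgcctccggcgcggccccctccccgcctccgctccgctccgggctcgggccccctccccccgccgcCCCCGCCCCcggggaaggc
In Unc13a the SP1 site begins 52 and the EGR site 25 bases before the start, and in Shank3 the EGR site begins 146 and the SP1 site 19 bases before it. The promoter table held 37 windows for 26 of the 31 members. The EGR site was in 3 of these windows (Shank3, Synj1 and Unc13a), or 8.1% against 0.612% of all windows, and the SP1 site in 13, or 35.1% against 11.4%. The Synj1 window with the EGR site also held the SP1 site, and Synj1 fell in untreated, vehicle and farnesol EAE. A link between these sites and the changes was not tested. Matches were searched on both strands, and none in the member windows overlapped another motif. The members' windows had a median GC content of 61.3%, against 52.7% for all windows, which bears on any GC-rich motif. The CACGTG E-box was in 5.4% of member windows against 7.15% of all, and the letters TATAAA in 5.4% against 13.6%.

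Endocytosis was represented by Dnm1, dynamin 1, which cuts the retrieved vesicle from the membrane, and Synj1, synaptojanin 1, which helps to shed its clathrin coat. Dnm1 measured 1592 ± 82.2 CPM in naive libraries, was -0.06 ± 0.05 in untreated EAE (edgeR adjusted p = 0.363), and fell by 11.2% in vehicle and 12.5% in farnesol EAE. Synj1 fell by 9.01%, 13.1% and 11.4% in the 3 EAE groups.

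Log2 changes of the postsynaptic members ran from -0.39 to 0.43 in untreated, from -0.49 to -0.02 in vehicle and from -0.32 to 0.04 in farnesol EAE. Dlg4 encodes PSD-95, the main scaffold of excitatory synapses. It was 790 to 939 CPM in naive (median 880), 613 to 887 CPM in untreated (median 721), 647 to 744 CPM in vehicle (median 703) and 564 to 852 CPM in farnesol libraries (median 706). All 9 vehicle libraries and 7 of 10 farnesol libraries were below the naive range. Dlg4 fell by 16.5% in untreated, 20.2% in vehicle and 18.3% in farnesol EAE (edgeR adjusted p = 0.00291, 0.000223 and 0.000559). Nlgn2, neuroligin 2, is an adhesion molecule of inhibitory synapses, and it fell by 9.63%, 15.4% and 12.5%.

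The Shank proteins form the layer beneath PSD-95, and of their 3 genes 1 was called. Shank1 was 605 to 706 CPM in naive (median 683), 395 to 702 CPM in untreated (median 502), 410 to 532 CPM in vehicle (median 482) and 434 to 706 CPM in farnesol libraries (median 572). All vehicle libraries and 8 of 9 untreated libraries were below the naive range, against 6 of 10 farnesol libraries. The change of Shank1 was the largest fall of any member in untreated EAE (-0.39 ± 0.09, edgeR adjusted p = 0.000946) and in vehicle EAE (-0.49 ± 0.09, edgeR adjusted p = 5.5e-05). In farnesol EAE it was -0.23 ± 0.08 (edgeR adjusted p = 0.0353). Within the farnesol group, Shank1 was 434 to 578 CPM in the 3 libraries of the low set and 548 to 706 CPM in the 7 of the high set. Inside the high set the change from naive was -0.12 ± 0.05 (edgeR adjusted p = 0.0905), and with library set as a term it was -0.05 ± 0.14 in untreated and -0.14 ± 0.14 in vehicle EAE. Shank1 thus differed with the library set inside 1 treatment group, and the part of the set in its change was not tested further.

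Shank2 and Shank3 showed no call in any comparison. Shank2 was 189 to 224 CPM in naive, 183 to 261 CPM in untreated, 167 to 221 CPM in vehicle and 181 to 223 CPM in farnesol libraries. Shank3 was 296 to 332 CPM in naive, 283 to 377 CPM in untreated, 267 to 364 CPM in vehicle and 273 to 376 CPM in farnesol libraries, so the groups of both genes overlapped. The 95% intervals of their log2 changes were -0.08 to 0.17, -0.21 to 0.04 and -0.16 to 0.08 for Shank2, and -0.07 to 0.17, -0.15 to 0.10 and -0.08 to 0.16 for Shank3, in untreated, vehicle and farnesol EAE.

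Homer1 encodes a scaffold that links Shank to group I metabotropic glutamate receptors, and a short form of it is induced by neuronal activity. The counts are per gene and do not separate the forms. Homer1 was 130 to 192 CPM in naive (median 163), 156 to 297 CPM in untreated (median 227), 90.3 to 205 CPM in vehicle (median 173) and 113 to 234 CPM in farnesol libraries (median 143). It was above the highest naive library in 6 of 9 untreated libraries. Homer1 was the only member that rose, by 0.43 ± 0.14 in untreated EAE (edgeR adjusted p = 0.0207). It was -0.09 ± 0.14 in vehicle EAE (edgeR adjusted p = 0.685) and -0.12 ± 0.14 in farnesol EAE (edgeR adjusted p = 0.517). Without the libraries with Sbp the untreated change was 0.30 ± 0.17 (edgeR adjusted p = 0.248), and with library set as a term it was -0.10 ± 0.22 (edgeR adjusted p = 0.875). Untreated libraries with Sbp held 207 to 297 CPM of Homer1 and the other 4 held 156 to 283 CPM. Inside the high set Homer1 fell in farnesol EAE, by 0.30 on the log2 scale (SE 0.08, edgeR adjusted p = 0.00639).

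CaMKII is an abundant kinase of the postsynaptic density, and neurogranin holds its activator calmodulin. Camk2a was 2178 to 2854 CPM in naive (median 2420), 1707 to 2719 CPM in untreated (median 2053), 1604 to 2093 CPM in vehicle (median 2014) and 1445 to 3077 CPM in farnesol libraries (median 2097). The vehicle libraries were all below the naive range, and the farnesol libraries spanned it on both sides. Camk2a fell by 21.3% in vehicle EAE (edgeR adjusted p = 0.00561) and was -0.18 ± 0.10 in untreated EAE (edgeR adjusted p = 0.163) and -0.18 ± 0.09 in farnesol EAE (edgeR adjusted p = 0.145). Inside the high set it fell in farnesol EAE, by 0.23 on the log2 scale (SE 0.08, edgeR adjusted p = 0.0402). Camk2b fell by 8.73%, 10.5% and 10.6% in the 3 EAE groups.

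The ratio of Camk2a to Camk2b was 0.19 lower on the log2 scale in vehicle EAE than in naive brain (1.30 ± 0.09 against 1.48 ± 0.12, exact permutation p = 0.000658, adjusted p = 0.00987). Without the libraries with Sbp the difference was -0.17 (exact permutation adjusted p = 0.0799). It was -0.07 in untreated and -0.03 in farnesol EAE (exact permutation adjusted p = 0.668 and 0.819). Farnesol EAE exceeded vehicle EAE by 0.15 in this ratio (exact permutation p = 0.0355, adjusted p = 0.179). In the low set alone, 3 farnesol libraries exceeded 9 vehicle libraries by 0.26 (exact permutation p = 0.00455, the smallest that design can give). The exact permutation adjusted p was 0.0455, over the fewer tests possible within 1 set. Of these 3 libraries, farnesol replicate 2, which was low in cerebellar genes, had the highest log2 ratio (1.75, against 1.43 and 1.48). Without it the difference was 0.16 (2 against 9 libraries, exact permutation p = 0.0545). Nrgn was 1067 to 1400 CPM in naive (median 1137), 827 to 1296 CPM in untreated (median 1078), 735 to 1027 CPM in vehicle (median 894) and 599 to 1312 CPM in farnesol libraries (median 933). It was -0.18 ± 0.10 in untreated EAE (edgeR adjusted p = 0.205) and fell by 22.8% in vehicle and 19.8% in farnesol EAE (edgeR adjusted p = 0.00433 and 0.011).

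Set side by side, the presynaptic members fell in 12, 17 and 17 of 22 genes in untreated, vehicle and farnesol EAE, and the postsynaptic members in 4, 6 and 5 of 9. Their median log2 changes were -0.14, -0.21 and -0.20 for the presynaptic and -0.15, -0.24 and -0.18 for the postsynaptic members. The medians over all genes tested were -0.006, 0.004 and 0.005, and those of the abundant genes -0.08, -0.12 and -0.12. Of all genes tested 11.3%, 15.2% and 16.3% fell, and of the abundant genes 31.3%, 47.3% and 49.7%. Most postsynaptic members, but few presynaptic ones, have at least 9000 bases of exon, and the part of exonic length was not tested. No difference between the classes was tested. The mean log2(CPM + 0.5) of the presynaptic members was 9.13 to 9.30 in naive, 8.98 to 9.25 in untreated, 8.83 to 9.09 in vehicle and 8.92 to 9.14 in farnesol libraries. For the postsynaptic members it was 9.01 to 9.24, 8.82 to 9.27, 8.69 to 9.00 and 8.75 to 9.23. The presynaptic minus the postsynaptic mean within a library was 0.06 to 0.12 in naive brain, and it ranged more widely in untreated EAE (-0.07 to 0.20), vehicle EAE (0.06 to 0.25) and farnesol EAE (-0.09 to 0.17). Untreated libraries with Sbp above 1 CPM held -0.069 to 0.053 and the other untreated libraries 0.038 to 0.199. The farnesol group mixes both library sets, whereas the naive group holds only the high set. The part of these splits in the wider ranges was not tested.

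**Figure D4:**
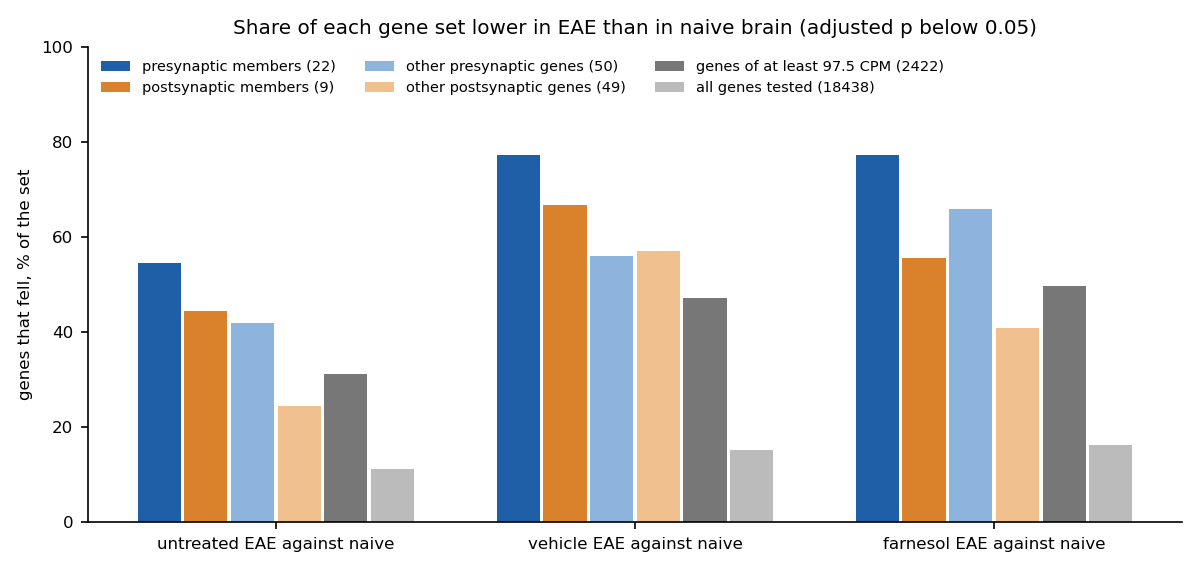
Percentage of each gene set that fell (edgeR adjusted p below 0.05) in the 3 comparisons with naive brain: presynaptic and postsynaptic members, the other presynaptic and postsynaptic genes listed, genes of at least 97.5 CPM, and all genes tested. In each comparison both member classes stand above the share of all genes (11.3%, 15.2% and 16.3%), and the abundant genes lie between (31.3%, 47.3% and 49.7%).

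Other genes of the synapse were read from lists of 50 presynaptic and 49 postsynaptic genes. Of the presynaptic genes, 21 fell and 1 rose in untreated, 28 fell in vehicle and 33 fell in farnesol EAE. They include Syt11, which fell by 0.22, 0.25 and 0.24 on the log2 scale. Of the postsynaptic genes, 12 fell and 1 rose in untreated, 28 fell in vehicle and 20 fell in farnesol EAE. Beside these lists, 11.3%, 15.2% and 16.3% of all genes and 31.3%, 47.3% and 49.7% of the abundant genes fell. The share of this postsynaptic list that fell was below that of the abundant genes in untreated and farnesol EAE and above it in vehicle EAE. Gria1, an AMPA receptor subunit, fell by 0.19, 0.22 and 0.20, and the neuroligin gene Nlgn3 fell by 0.35, 0.37 and 0.24. Grin2b, an NMDA receptor subunit, was 310 ± 30.2 CPM in vehicle and 448 ± 37.1 CPM in naive libraries (log2 change -0.53 ± 0.10, edgeR adjusted p = 0.000184).

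Between the EAE groups few members differed. In vehicle against untreated EAE no member was called by edgeR, beside 0.0217% of all genes, and 10 had an unadjusted p below 0.05, all 10 lower in vehicle EAE. Without the libraries with Sbp, which leaves 4 untreated and 6 vehicle libraries, 3 had such a p, Syp was at 0.00 ± 0.07 and Shank1 at 0.12 ± 0.10. Over all libraries the lowest member was Homer1 at -0.52 (95% interval -0.79 to -0.24, edgeR p = 0.000493, adjusted p = 0.202). Homer1 was at -0.42 ± 0.18 without the libraries with Sbp. In farnesol against vehicle EAE no member was called by edgeR, beside 0.0922% of all genes, and 1 had an unadjusted p below 0.05. This was Shank1, 0.26 higher in farnesol EAE (95% interval 0.10 to 0.43, edgeR p = 0.00294, adjusted p = 0.40). In the low library set alone it was 0.02 ± 0.09 (edgeR adjusted p = 0.966). Over all members the differences between farnesol and vehicle EAE ran from -0.04 to 0.26, and their 95% intervals reached from -0.31 to 0.43. All vehicle libraries are of the low set and 7 of 10 farnesol libraries of the high set. The part of library set in these values was not tested. Examples are 4 vesicle and fusion genes. Syn1 differed by -0.03 (-0.16 to 0.09), Syp by 0.02 (-0.09 to 0.12), Vamp2 by -0.01 (-0.11 to 0.08) and Nsf by 0.00 (-0.06 to 0.07). DESeq2 called no member in either comparison.

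In farnesol against untreated EAE, Homer1 was the only member called, beside 0.911% of all genes that fell and 0.960% that rose. It was 0.56 lower in farnesol EAE on the log2 scale (log2 change -0.56 ± 0.13, edgeR adjusted p = 0.0179). The ranges overlapped, at 113 to 234 CPM in farnesol and 156 to 297 CPM in untreated libraries. Farnesol libraries of the low set held 159 to 234 CPM and those of the high set 113 to 149 CPM. In the low set alone the change was -0.21 ± 0.17 (edgeR adjusted p = 0.689), and without the libraries with Sbp it was -0.42 ± 0.16 (edgeR adjusted p = 0.211). In the latter fit Shank1 rose, by 0.36 ± 0.09 (edgeR adjusted p = 0.0482), beside 0.519% of all genes. Of a list of 15 genes induced by neuronal activity, 8 fell in farnesol against untreated EAE and 1 (Egr3) rose in untreated against naive. In farnesol against naive 10 of them fell, where Homer1 did not pass over all libraries. Their summed level was 864 to 1388 CPM in naive (median 1209) and 979 to 1469 CPM in untreated libraries (median 1203). It was 550 to 1402 CPM in vehicle (median 929) and 682 to 906 CPM in farnesol libraries (median 756). Their part in the Homer1 result was not tested.

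**Figure D5:**
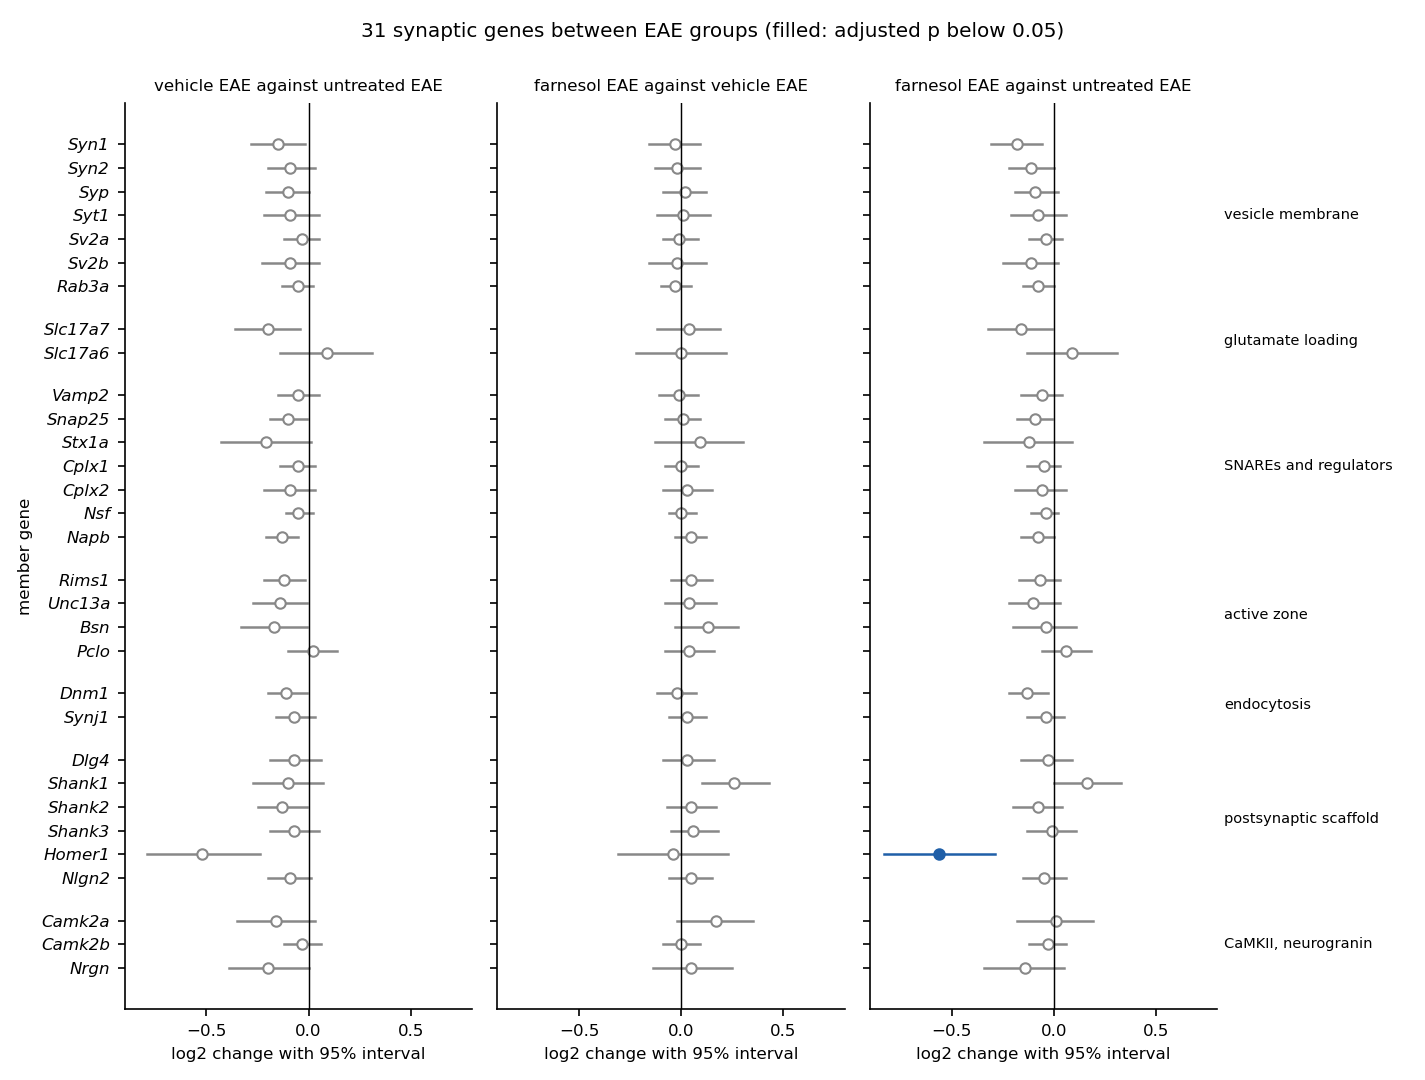
Log2 change of each member (rows, grouped by role) in vehicle against untreated, farnesol against vehicle and farnesol against untreated EAE, with lines for the 95% interval and filled points for edgeR adjusted p below 0.05. Homer1 in farnesol against untreated EAE (-0.56) is the only filled point, and Shank1 lies to the right of 0 in farnesol against vehicle EAE (0.26).

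Levels per kilobase of exon in naive brain ranged from 809 CPM per kilobase for Nrgn to 11.7 for Pclo. Cplx1 (393), Snap25 (330), Camk2a (329), Dnm1 (303) and Vamp2 (297) followed Nrgn, and Unc13a (26.5), Shank2 (19.6), Slc17a6 (19.3) and Homer1 (13.8) preceded Pclo. Long and short members were called at different rates. Of the 9 members with at least 9000 bases of exon, 3 fell in each comparison with naive brain. Of the 8 members under 5000 bases, 6, 7 and 7 fell in untreated, vehicle and farnesol EAE, and of the 14 between them 7, 13 and 12 fell. Across the 31 members Spearman's rho between exonic length and log2 change was 0.37, 0.44 and 0.54. Over 18429 tested genes with a length it was -0.04, -0.08 and -0.10, and 17.6%, 23.0% and 19.7% of the genes of at least 9000 bases fell. Genes are not independent replicates, so these are descriptions with no test. Exons shared with other genes were a small part of each member (Syp was the highest, at 16.8% shared with Gm14703, a gene of 1.63 CPM).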

How the data were processed

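The 36 whole-brain RNA libraries were made with a NEBNext Ultra kit from 1 µg of RNeasy-purified total RNA, per the labels' protocols. The authors deposited raw read counts per Ensembl gene for every library. Mapping used STAR 2.5 and mm10, per the submitters' processing notes, and the labels' protocols also name Kallisto. The read counter, strand setting and annotation version were not given in the sources used here, which limits how overlapping genes can be read. GENCODE M21 (GRCm38) named 54495 of 54532 identifiers, holding 99.99% of counts, and gave coordinates and exonic lengths. Libraries held 14.71 M to 24.21 M counts, and no 2 were identical.

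Low-count genes were removed by filterByExpr (edgeR 4.0.16, R 4.3.3) at a minimum count of 10 and a minimum total of 15. After TMM scaling, edgeR's quasi-likelihood model held 1 mean for each group. The 6 comparisons were two-sided, with Benjamini-Hochberg adjustment across all tested genes, a threshold of 0.05 and no minimum fold. CPM are TMM-scaled. Ratios of 5 gene pairs used log2(CPM + 0.5) and two-sided exact permutation tests (scipy 1.17.1), adjusted over 30 tests. Within 1 library set not all 6 comparisons could be made, so the adjustment there was over fewer tests. The fitting code was tested on simulated data. The members and all gene lists were chosen with earlier results of these data known, so lists are described by counts and medians without a test. The text names members, plus up to 4 genes of smallest p per further list in each comparison with naive brain, and some of these are not reported here.

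No label says that replicates are separate animals, so p-values measure the spread between these libraries. Over 51 pairs of libraries with the same replicate number the median correlation of deviations from the group means was 0.01, against 0.002 for other pairs. Same-number pairs ran from -0.385 to 0.435. The median thus shows no pairing by number over these pairs as a whole, but it cannot exclude one among some libraries.

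Alternatives were RLE scaling, TMM without leukocyte and member genes, DESeq2 1.42.0, limma-voom (limma 3.58.1) with sample weights, a minimum count of 50, no filter, the compared groups alone, the replicate block, library set as a term, 1 library set only, pseudocounts of 0.05 and 5, and leaving out libraries low in cerebellar genes (over 1 log2 below the group median) or with Sbp above 1 CPM. Total-count scaling, and the low library set without a library low in cerebellar genes for 1 ratio, were added after seeing the data. Promoter windows came from RefSeq (GRCm38.p6), where Shank1, Shank2, Vamp2, Camk2a and Snap25 had none in the table used.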

Additional observations from a re-analysis of the deposited data

Results flagged for a closer look

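Of 124 combinations of member and group tested for a library far from the others by Dixon's test, 2 held one, and chance alone would mark about 1 in 20. Rab3a was 683 CPM in naive replicate 6, the highest naive library, with a gap to the next of 0.559 of the group's range. Pclo was 289 CPM in untreated replicate 1, with a gap of 0.502 of the range. The change of Homer1 against naive brain differed between farnesol and untreated EAE by -0.56 on the log2 scale (edgeR adjusted p = 0.0179), a contrast that equals the direct comparison of the 2 groups.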

How the results depend on the processing

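Counts of called members were 17 in untreated, 23 in vehicle and 22 in farnesol EAE against naive brain, and 1 in farnesol against untreated EAE. In untreated EAE they moved to 10 without a low-count filter, to 0 with library set as a term (when 8 members were lower at an unadjusted p below 0.05) and to 7 with total-count scaling, an alternative chosen after seeing the data that shifted the median log2 change of all genes by 0.0688, 0.0937 and 0.0817 in untreated, vehicle and farnesol EAE. Total-count scaling also lowered the counts in vehicle and farnesol EAE against naive brain. In vehicle EAE the count was 4 with library set as a term (17 lower at an unadjusted p below 0.05), where the 23 members that fell had a median log2 change of -0.21 against -0.25. In farnesol against untreated EAE it was 0 with library set as a term or in 1 set only, and 2 (Homer1 and Syn1) without the libraries low in cerebellar genes. Ratios that passed were 4 of 30, 1 without the libraries with Sbp, and 2 in 1 library set, where fewer than 30 could be tested. Homer1 in untreated EAE reversed to -0.10 with library set as a term. The causes were not tested. With the replicate block 13, 23 and 21 members were called against naive brain, and 0, 0 and 1 between EAE groups. Of all values recomputed, 2384 kept their side of the threshold, 101 lost the call, 11 gained it and 1 called value changed sign. Values not called in either fit count among the 2384 whatever their sign. Slc17a6 in untreated EAE, for example, was above 0 with library set as a term and below 0 without it. Every member had at least 1042 counts in every library.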

Other observations

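Some markers of other cell types and regions also differed from naive brain. The long noncoding RNA gene Snhg11, listed among the general neuronal markers, rose in each EAE group, from 885 ± 138 CPM in naive libraries to 1597 ± 367 CPM in untreated, 1719 ± 245 CPM in vehicle and 1790 ± 373 CPM in farnesol libraries. Of 12 markers of cerebral cortex, 3, 7 and 5 fell in untreated, vehicle and farnesol EAE and none rose, beside 11.3%, 15.2% and 16.3% of all genes that fell. Rorb, a transcription factor gene of cortical neurons, was 49.5 ± 5.15 CPM in naive, 34.2 ± 4.67 in untreated, 35.2 ± 3.52 in vehicle and 37.2 ± 4.85 CPM in farnesol libraries. Of the olfactory bulb markers, Omp, the olfactory marker protein gene, was 5.10 ± 4.02 CPM in naive and 0.779 ± 0.743, 0.618 ± 0.634 and 0.556 ± 0.259 CPM in untreated, vehicle and farnesol libraries, and Cdhr1 fell by 1.37, 1.12 and 1.51 on the log2 scale. The astrocyte glutamate transporter gene Slc1a2 fell from 2933 ± 253 CPM to 2111 ± 162, 1988 ± 140 and 2326 ± 193 CPM, while the astrocyte filament gene Gfap rose by 1.35, 1.12 and 0.98 on the log2 scale. Most of the oligodendrocyte markers listed did not fall, but the myelin gene Cnp fell by 0.30, 0.27 and 0.28 on the log2 scale.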
